A study of Mus musculus with 18 samples.

Results

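The neuregulins and ErbB receptors are 8 of the 30905 genes in the deposited gene table, taken by symbol: the ligand genes Nrg1, Nrg2, Nrg3 and Nrg4 and the receptor genes Egfr (also called ErbB1), Erbb2, Erbb3 and Erbb4. Single-nucleus RNA-seq was made of the hippocampus (Hip) and the prefrontal cortex (PFC) of 9 Kun Ming mice at 8 weeks of age, with both regions of every mouse, which gave 18 libraries. The mice were 3 germ-free mice (GF, mice 5, 6 and 7), 3 specific pathogen free mice (SPF, mice 30, 31 and 32) and 3 colonized GF mice (CGF, mice 17, 18 and 19), which were GF mice that shared cages with SPF mice from 4 weeks of age for 4 weeks. GF and CGF mice lived in flexible film isolators and SPF mice were raised elsewhere, so the absence of microbes and the housing cannot be told apart between GF and SPF. The labels name no transgene, no drug and no pooling of mice.

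Neuregulins are growth factors with an EGF-like domain. Most are made as membrane precursors, are cut by proteases and bind ErbB receptor tyrosine kinases, which then act in pairs on the MAP kinase and PI3 kinase routes. Erbb4 encodes a neuregulin receptor with an active kinase, Erbb3 one with little kinase activity of its own, and Erbb2 a partner receptor with no known ligand, whereas Egfr encodes the receptor of EGF-type ligands. In the brain the pathway is best known for ErbB4 in GABAergic interneurons, above all parvalbumin cells, and for ErbB receptors in the oligodendrocyte lineage.

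On the mouse genome build mm10 the genes differ widely in length. Nrg3 (chr14:38368952-39473088, 1104 kb), Erbb4 (chr1:68032186-69108059, 1076 kb) and Nrg1 (chr8:31814551-32884029, 1069 kb) were among the longest protein-coding genes of the table, at or above the 99.8 percentile of length, against a median of 12.6 kb for all genes. The others span 179.7 kb (Nrg2), 166 kb (Egfr), 107 kb (Nrg4), 25.2 kb (Erbb2, chr11:98412470-98437716) and 22.1 kb (Erbb3, chr10:128567523-128589652). The promoters of Erbb4 and Nrg3 are shown because these were the members that differed in most types between GF and SPF. Each is the 250 bases before the start of transcription from RefSeq on GRCm38.p6, on the minus strand and written 5′ to 3′, with CG pairs in capitals.
Erbb4 (chr1:69108060-69108309): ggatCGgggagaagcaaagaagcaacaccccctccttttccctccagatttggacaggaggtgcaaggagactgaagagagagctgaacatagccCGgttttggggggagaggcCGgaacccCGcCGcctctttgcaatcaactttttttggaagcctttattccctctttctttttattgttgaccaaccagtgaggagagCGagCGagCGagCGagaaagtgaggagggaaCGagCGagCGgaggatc
Nrg3 (chr14:39473089-39473338): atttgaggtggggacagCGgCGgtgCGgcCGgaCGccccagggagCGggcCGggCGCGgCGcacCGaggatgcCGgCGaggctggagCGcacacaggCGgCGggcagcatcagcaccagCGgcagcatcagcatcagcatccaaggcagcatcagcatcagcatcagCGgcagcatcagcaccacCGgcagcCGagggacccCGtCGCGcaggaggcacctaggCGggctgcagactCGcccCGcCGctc
The Nrg3 window held 27 CG pairs and 72.4% G and C, and the Erbb4 window 12 CG pairs and 54% G and C. Over the 32851 promoter windows of the same length the medians were 6 CG pairs and 52.4% G and C, and 8.56% and 33.5% of the windows held at least as many CG pairs as those of Nrg3 and Erbb4. On either strand, neither window held the TATA box letters TATAAA, which 12.4% of all windows held. The same was true of the CAAT box letters CCAAT (33.8% of all windows) and of the GC box letters GGGCGG (32.7%).

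The 18 libraries held 138000 nuclei that showed at least 200 genes and no more than 10% mitochondrial UMIs, 71398 from Hip and 66602 from PFC. A UMI is a molecular tag that counts 1 captured RNA molecule. Depth moved with the groups. In Hip the median UMIs per nucleus were 4593 to 5809.5 for GF mice, 6132 to 7054 for SPF mice and 5444.5 to 7559.5 for CGF mice, and in PFC 6721 to 7338.5 for GF, 3028 to 3187 for SPF and 2330.0 to 3013 for CGF. The share of mitochondrial UMIs per library, a measure of library quality, moved with the groups too, with GF highest in Hip and lowest in PFC. In Hip it was 0.645% to 1.10% for GF, 0.128% to 0.471% for SPF and 0.0770% to 0.218% for CGF. In PFC it was 0.359% to 0.594% for GF, 1.66% to 3.22% for SPF and 1.28% to 2.24% for CGF. The libraries shared few barcodes (at most 0.366% of the smaller library in any pair, within or between regions). Nuclei were typed by marker genes that include no neuregulin or ErbB gene, which named 65947 Hip and 58531 PFC nuclei, among them 40891 and 38222 excitatory neurons, 4933 and 6382 interneurons, 6209 and 2823 oligodendrocytes, 1913 and 1619 oligodendrocyte precursor cells (OPC), 6381 and 5219 astrocytes and 2201 and 1950 microglia. All 8 interneuron, 10 oligodendrocyte, 6 OPC and 12 microglial markers were highest in their own type in both regions, as were 10 of 12 astrocyte markers. In Hip 4 of 8 excitatory, 3 of 6 dentate and 3 of 5 Lamp5 markers were, and in PFC 2 of 4 upper-layer and 1 of 3 mid-layer markers. The gate used these same markers, so their rank is no separate check of the types. In PFC 34.3% of the upper-layer and 26.0% of the mid-layer nuclei were near the threshold of the gate. Interneurons were split into Pvalb, Sst, Vip and Lamp5 subtypes, but 2555 of the 4933 in Hip and 2945 of the 6382 in PFC got no subtype. Of the excitatory neurons 7071 in Hip and 19019 in PFC got none. Subtype values leave these nuclei out. In each interneuron subtype 23.2% to 32.1% of the Hip nuclei and 13.9% to 24.1% of the PFC nuclei were near the threshold. Vip interneurons were few, with 6 to 22 nuclei per Hip library and 9 to 26 per PFC library. A level below is in CPM, a gene's UMIs over all UMIs of that type in a mouse in counts-per-million, mean ± SD over 9 mice unless stated, and levels are compared between types for 1 gene at a time.

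**Figure D1:**
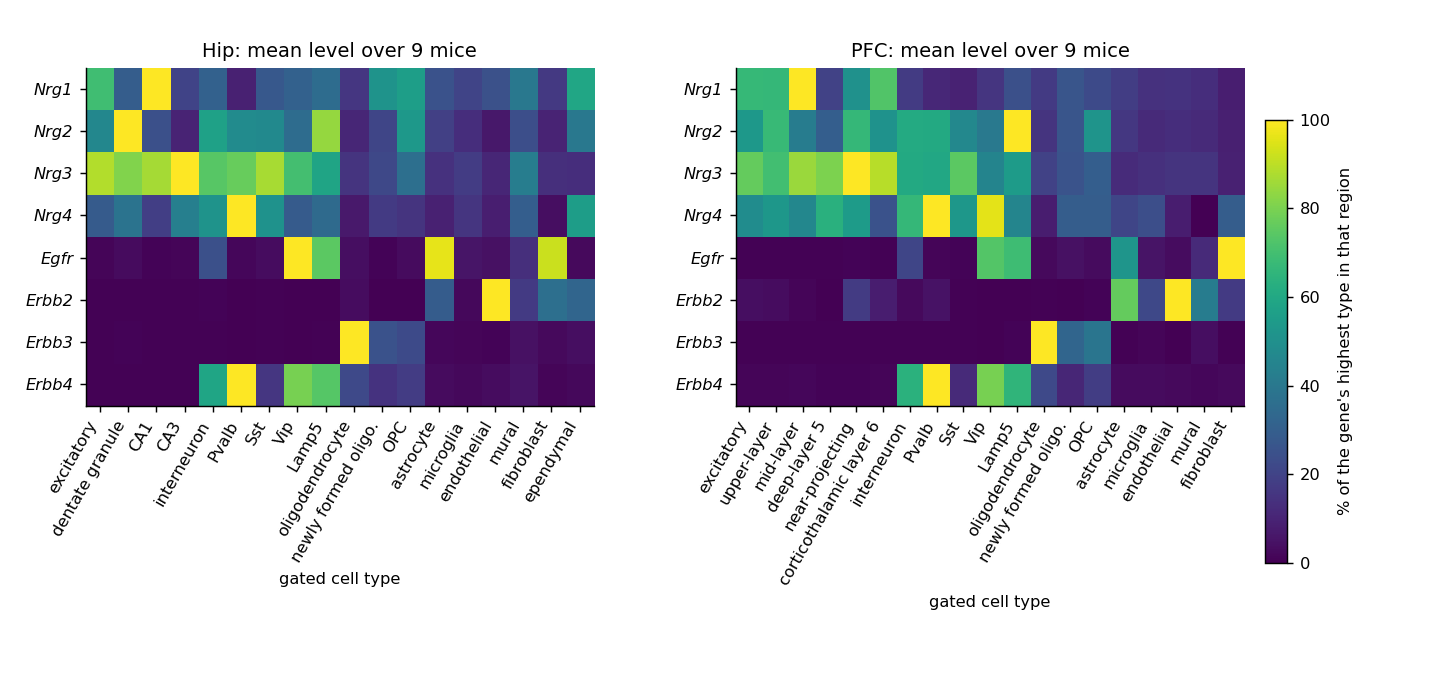
Heat map of the mean level over 9 mice of each of the 8 genes (rows) in each gated type (columns) of Hip and PFC, as a percentage of the gene's highest type in that region. Brighter (yellow) is higher, and Erbb4 is brightest in Pvalb, Vip and Lamp5 interneurons, Erbb3 in oligodendrocytes, Egfr in astrocytes, fibroblasts, Vip and Lamp5 interneurons, Nrg1 in CA1 and mid-layer neurons, and Nrg3 in all neurons.

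Nrg1, which encodes the best studied neuregulin, had its highest level in 1 kind of excitatory neuron in each region and differed several-fold between kinds. In Hip it was highest in CA1 neurons at 1394 ± 479.9 CPM, against 413 ± 136 in dentate granule neurons and 283 ± 65.1 in CA3 neurons. The CA1 level was 862, 1191 and 1389 in the GF mice, 2381, 1512 and 1737 in the SPF mice and 1258, 1451 and 768 in the CGF mice. The dentate level was 231, 281 and 306 in the GF mice, 624, 561 and 541 in the SPF mice and 414, 410.5 and 352 in the CGF mice, below the CA1 level in 9 of 9 mice. In PFC the mid-layer neurons led with 3654 ± 732, followed by corticothalamic layer 6 neurons (2662 ± 768), upper-layer neurons (2427 ± 404), near-projecting neurons (1844 ± 397) and deep-layer 5 neurons (721 ± 342). Mid-layer neurons held 3673, 3904 and 3930.1 in the GF mice, 4597, 3910.0 and 4544 in the SPF mice and 2890.2, 2911 and 2527 in the CGF mice, all above corticothalamic neurons of the same mouse. Outside neurons Hip ependymal cells had 828 ± 338, and OPC 784 ± 138 in Hip and 824 ± 217 in PFC, and mature oligodendrocytes 223 ± 50.8 and 615 ± 151. As a share of the excitatory level Nrg1 was at 24.2% in Hip and 25.1% in PFC oligodendrocytes, where the excitatory marker Camk2a was at 21.2% and 26.6%. In OPC it was at 89.4% in Hip and 34.4% in PFC, where Arpp21, another such marker, was at 52.4% and 35.2%. Other excitatory markers gave other shares: Slc17a7 and Nrgn stood far higher in Hip oligodendrocytes, and Camk2a stood below Arpp21 in OPC of both regions (values with Nrg3 below). How much of this Nrg1 came from RNA of neurons was not tested. Pvalb interneurons had the lowest Nrg1 level of the 16 Hip types, 127 ± 44.3.

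Interneurons held less Nrg1 than excitatory neurons in both regions. The difference was 2.37-fold in Hip (log2 fold change -1.24, SE 0.16, adjusted p = 8.17e-06, edgeR quasi-likelihood test with Benjamini-Hochberg adjustment over all genes, called where the adjusted p is under 0.05) and 4.55-fold in PFC (log2 fold change -2.18, SE 0.11, adjusted p = 4.42e-12), and the interneuron level was the lower one in 8 and 9 of 9 mice. Among interneurons, Lamp5 cells had more Nrg1 than Pvalb cells in both regions, 494 ± 143 against 127 ± 44.3 in Hip (log2 fold change of Pvalb against Lamp5 -1.90 ± 0.23) and 896 ± 292 against 399.8 ± 161 in PFC (-1.28 ± 0.13, both ± SE and called).

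Nrg2, whose product also binds ErbB4, had a pattern of its own. In Hip it was highest in dentate granule neurons, at 272, 287 and 276 CPM in the GF mice, 423, 409 and 403 in the SPF mice and 421, 406 and 412 in the CGF mice. CA1 neurons held 90.3 ± 13.9 and CA3 neurons 36.4 ± 6.95, so the order of the 3 kinds of hippocampal neuron was not that of Nrg1. Lamp5 interneurons came next with 309.8 ± 62.1, and were the highest type in PFC, where their level was 377, 337 and 267 in the GF mice, 391, 394 and 329 in the SPF mice and 376, 308 and 340.4 in the CGF mice. Lamp5 cells exceeded Pvalb, Sst and Vip cells in each region, in 9 of 9 mice, and the log2 fold changes of these subtypes against Lamp5 were -0.77, -0.81 and -1.31 in Hip and -0.73, -1.13 and -1.17 in PFC, all called. Among glia OPC held 196 ± 25.9 in Hip and 179 ± 19.8 in PFC, and oligodendrocytes 40.2 ± 12.4 and 52.3 ± 14.7, a fall from OPC of 4.98-fold and 3.58-fold (log2 fold change -2.32, SE 0.10, adjusted p = 5.52e-17 in Hip).

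**Figure D2:**
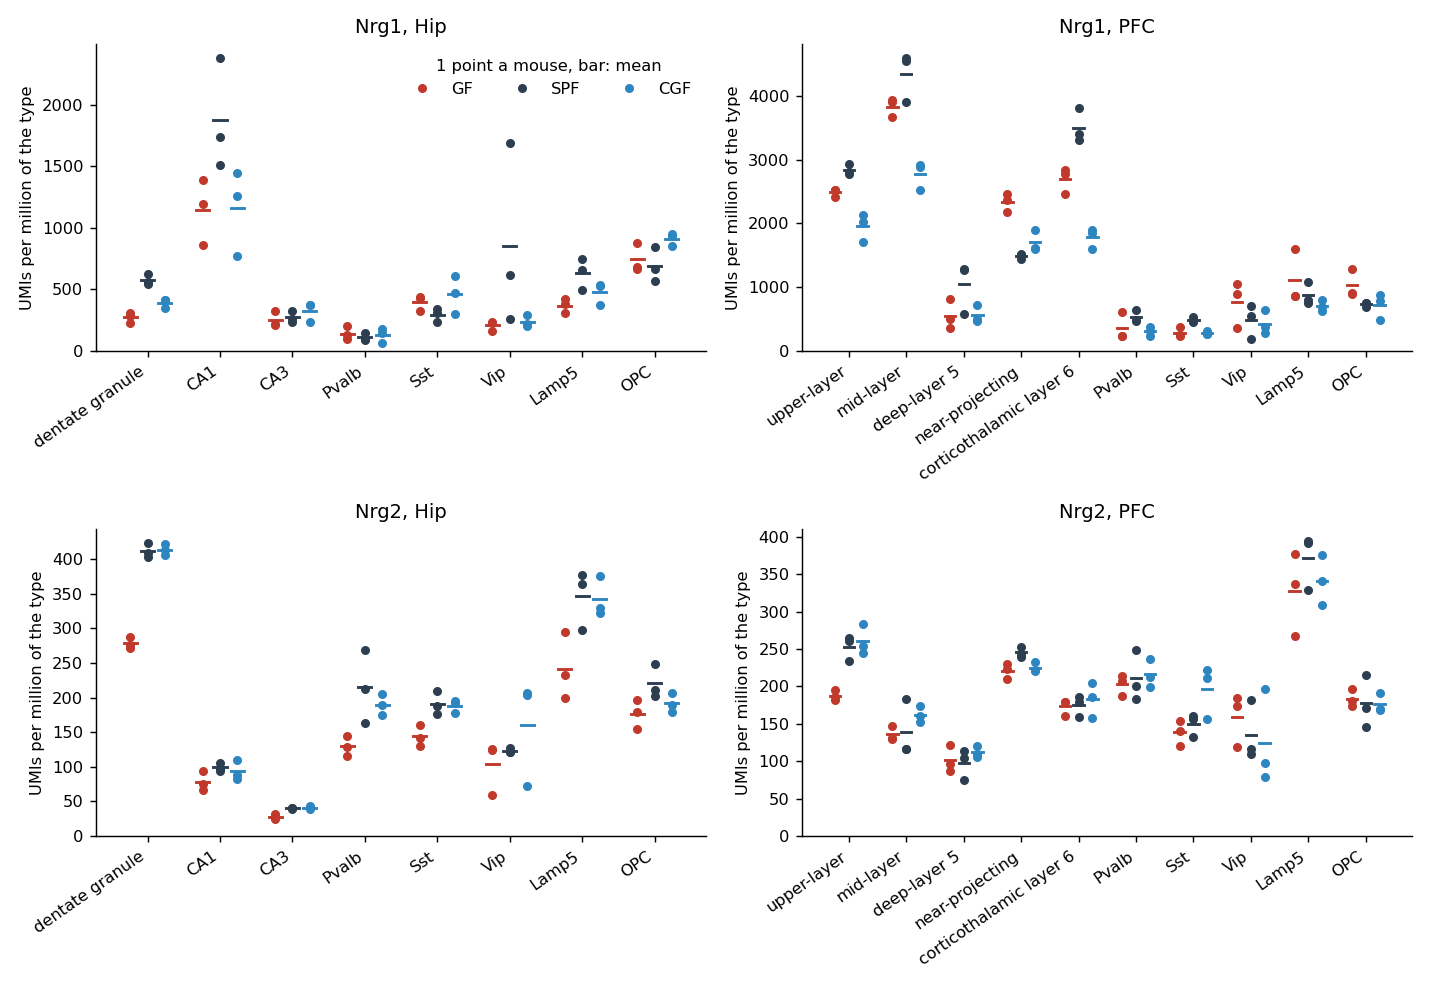
Levels of Nrg1 and Nrg2 (CPM of the type, linear axis) in excitatory subtypes, interneuron subtypes and OPC of each region, 1 point per mouse, coloured by GF, SPF and CGF. Nrg1 is high in CA1 and mid-layer neurons and Nrg2 in dentate granule neurons and Lamp5 interneurons.

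Nrg3, a ligand of ErbB4 that is made mainly in the nervous system, was high in every neuron type. Hip CA3 neurons held 6063, 5958 and 5862 CPM in the GF mice, 8329, 8400.0 and 8112 in the SPF mice and 7803, 7979.6 and 7581 in the CGF mice, mean 7343 ± 1067. The lowest Hip neuron type, Lamp5 interneurons, still had 4286 ± 754. In PFC the means ran from 5898 in near-projecting neurons to 2665 in Vip interneurons. Interneurons had less than excitatory neurons (log2 -0.34 ± 0.04 in Hip and -0.50 ± 0.05 in PFC, ± SE), calls that were lost when the fit left out the pairing by mouse. OPC were the highest glia, with 2693 ± 384 in Hip and 1771 ± 575 in PFC.

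In oligodendrocytes, astrocytes and microglia the Nrg3 level was 16.4%, 15.8% and 19.6% of that of excitatory neurons of the same library in Hip and 26.6%, 17.9% and 20.4% in PFC. Arpp21 and Camk2a, both genes of excitatory neurons that served as their markers, stood at 14.7% to 20% and 20.7% to 24.2% in the same Hip glia and at 17.9% to 23.2% and 22.7% to 26.8% in PFC. Other excitatory markers stood higher: Slc17a7 was at 109.8%, 90.6% and 138% of the excitatory level in Hip oligodendrocytes, astrocytes and microglia, and Nrgn at 219%, 186% and 283%. The markers thus gave no single share for these glia. OPC stood apart for Nrg3 with 41.5% and 40.1%, Camk2a being at 20.3% and 26.0% there and Arpp21 at 52.4% and 35.2%. How much of the glial Nrg3 came from RNA of neurons was not tested. The deposited table also lists Nrg3os, an antisense gene of the Nrg3 locus, and Egfros at Egfr, each with counts of its own. Whether the counting used strand is not given in the sources used here, and how far reads of a pair were kept apart was not tested.

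Nrg4, the fourth ligand gene, gave 2919 UMIs over all Hip excitatory neurons and 601 over Hip interneurons. Its highest type was the Pvalb interneuron, at 32.6, 26.5 and 24.1 CPM in the GF mice, 19.9, 26.8 and 24.5 in the SPF mice and 27.7, 31 and 25.9 in the CGF mice in Hip (173 UMIs). Every mouse had more there than in Sst cells (13.5 ± 3.26) and Lamp5 cells (9.20 ± 3.09), with log2 fold changes of 0.98 ± 0.17 and 1.54 ± 0.20 (± SE, adjusted p = 1.42e-05 and 1.29e-08). In PFC the Pvalb level was 12.4 ± 6.13 on 139 UMIs and Nrg4 passed the filter in no subtype pair. Whole interneurons exceeded excitatory neurons in Hip (log2 0.77 ± 0.09) and did not pass in PFC (0.29 ± 0.13, adjusted p = 0.0768).

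Erbb4 was highest in Pvalb, Vip and Lamp5 interneurons, followed by the oligodendrocyte lineage and Sst cells. In Hip Pvalb interneurons the level was 11387, 8809 and 10986 CPM in the GF mice, 13107, 12736 and 13353 in the SPF mice and 15198, 13787 and 15232 in the CGF mice, with a mean of 12733 ± 2068. Vip and Lamp5 interneurons had 10121 ± 2389.7 and 9382 ± 3087, and Sst interneurons 2013 ± 464. The Sst level was 1741, 1629 and 1505 in the GF mice, 2164, 2766 and 2657 in the SPF mice and 1777, 2232 and 1644 in the CGF mice, below the Pvalb level in every mouse. Its mean was near that of OPC (2246 ± 349), which was the higher of the 2 in 7 of 9 mice, and the pair did not pass an exact permutation test over the mice (adjusted p = 0.502). Excitatory neurons held 86.3 ± 33.5.

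The PFC order was the same for these types. Pvalb interneurons held 12577, 10970.5 and 12134 in the GF mice, 5362, 4824 and 5149 in the SPF mice and 5957, 5746 and 4805 in the CGF mice. Vip, Lamp5 and Sst interneurons held means of 5970.0, 4907 and 898, and excitatory neurons 101 ± 20.3. Interneurons as a whole exceeded excitatory neurons 86.6-fold in Hip (log2 fold change 6.44, SE 0.20, adjusted p = 6.68e-13) and 39.7-fold in PFC (log2 fold change 5.31, SE 0.13, adjusted p = 2.02e-16), in 9 of 9 mice each time. Pvalb cells exceeded Sst cells 6.46-fold in Hip and 8.07-fold in PFC (log2 2.69 ± 0.13 and 3.01 ± 0.11). The step from Pvalb to Vip was smaller, log2 0.53 ± 0.12 and 0.29 ± 0.10, both were lost without the pairing by mouse, and in PFC Pvalb was higher in 5 of 9 mice and the call was lost without GF mouse 5, GF mouse 7 or CGF mouse 17 (0.19 to 0.28). Vip and Lamp5 cells did not pass the test against each other in Hip (log2 -0.02 ± 0.12, adjusted p = 0.96, Vip higher in 6 of 9 mice) or in PFC, where Vip was higher in 8 of 9 mice (0.25 ± 0.10, adjusted p = 0.0974).

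Shares of nuclei gave the same picture once each nucleus was thinned to 1000 UMIs, since deeper nuclei show more genes. Nuclei with fewer than 1000 UMIs were left out of thinned shares, here and below, but not of unthinned ones. This was uneven where depth was low: the median depth of PFC oligodendrocytes was 2046 UMIs in GF, 806 in SPF and 814 in CGF. At least 1 Erbb4 UMI was left in 97.9% ± 2.4 of Hip Pvalb nuclei and 97.4% ± 1.66 of PFC Pvalb nuclei (99.4% and 99.6% unthinned). In Sst nuclei the share was 54.3% ± 5.3 and 34.0% ± 5.59 (89.6% and 65.1% unthinned). Excitatory nuclei, taken as the background level, showed Erbb4 in 5.52% and 6.78% (31.7% and 24.8% unthinned), with median depths of 8256 UMIs in Hip against 10181 for Pvalb nuclei.

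In the oligodendrocyte lineage Erbb4 was present at every stage. Hip oligodendrocytes held 2871, 2261 and 2437 CPM in the GF mice, 3147, 3180.2 and 2544 in the SPF mice and 3028, 2780.4 and 3088 in the CGF mice and OPC 1840.1, 1853 and 1964 in the GF mice, 2397, 2405 and 1942 in the SPF mice and 2733, 2649 and 2435 in the CGF mice. Newly formed oligodendrocytes held 1866 ± 721. Oligodendrocytes exceeded OPC by log2 0.31 ± 0.08 in Hip and 0.27 ± 0.08 in PFC, small steps that were lost without the pairing by mouse and without likely doublets, and in PFC without GF mouse 5 (0.20). Thinned shares of nuclei with Erbb4 were 86.2% of oligodendrocytes and 85.8% of OPC in Hip and 70.3% and 68.4% in PFC. Most SPF and CGF oligodendrocytes of PFC were too shallow to be in these shares. Astrocytes (360.4 ± 111 in Hip and 225 ± 114 in PFC) and microglia (266 ± 202 and 223 ± 90.1) had lower means.

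**Figure D3:**
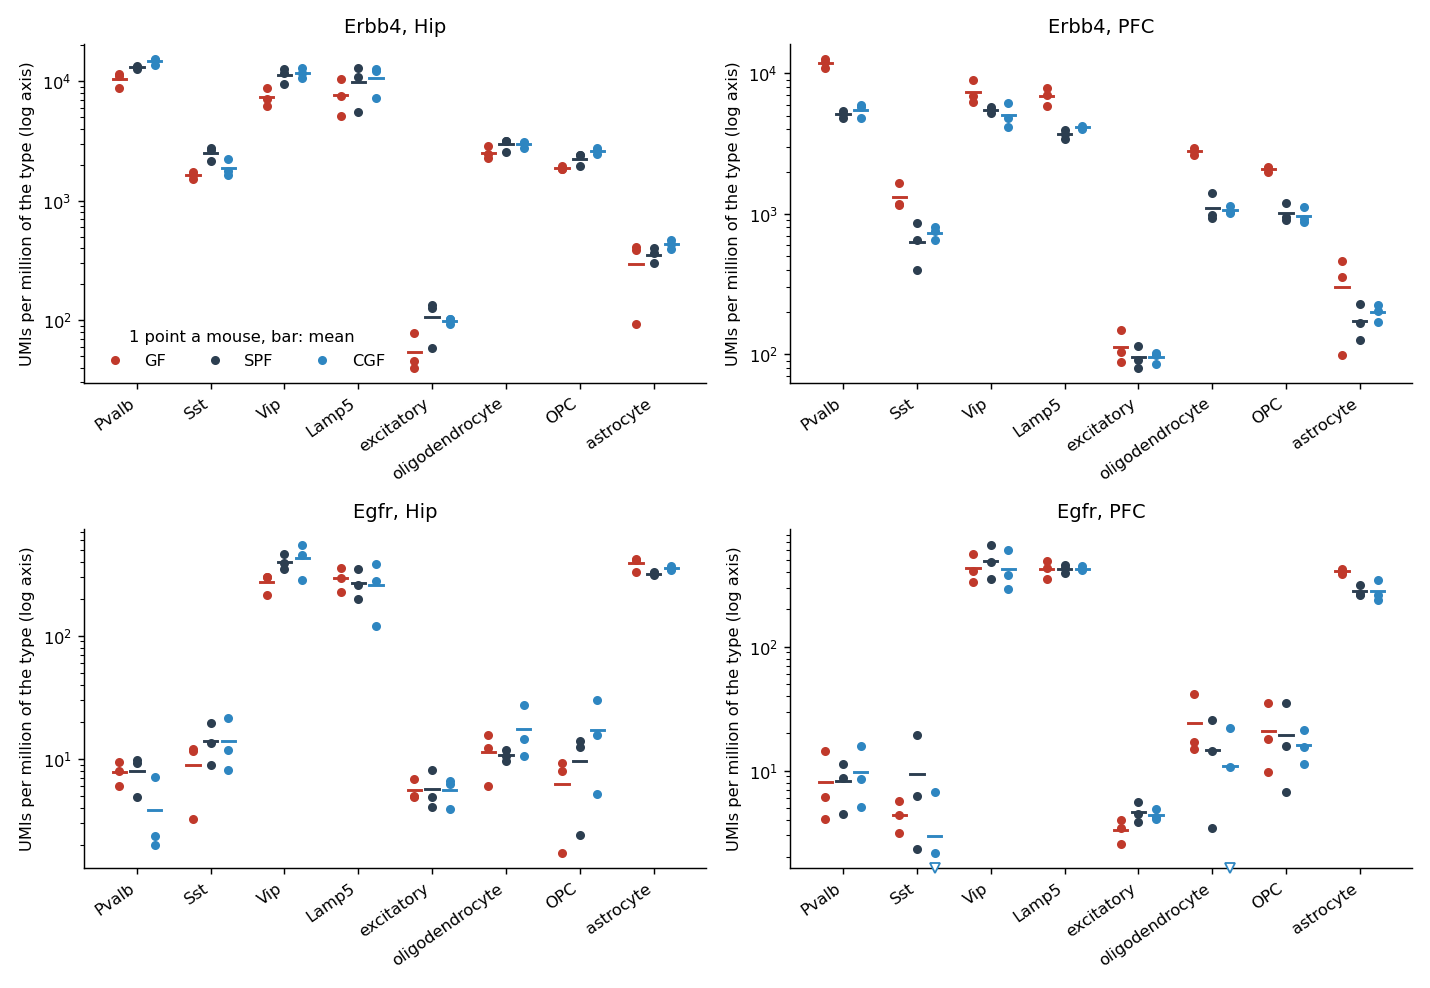
Levels of Erbb4 and Egfr (CPM of the type, log axis) in 8 types of Hip and PFC, 1 point per mouse, coloured by group, with open triangles at the foot for mice at 0. Erbb4 is high in Pvalb, Vip and Lamp5 interneurons, and Egfr is high in Vip and Lamp5 interneurons and astrocytes and low in Pvalb and Sst interneurons.

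Egfr, the EGF receptor, split the interneuron subtypes in another way. Vip interneurons held 216, 299.8 and 303 CPM in the GF mice, 463, 393 and 349 in the SPF mice and 282, 453 and 551 in the CGF mice in Hip, and Lamp5 interneurons 354, 227 and 297 in the GF mice, 257, 351 and 201 in the SPF mice and 382, 281 and 119 in the CGF mice. Pvalb and Sst interneurons held only 6.56 ± 2.97 and 12.2 ± 5.62, and excitatory neurons 5.62 ± 1.40. Pvalb cells were 2.01-fold below Sst cells there (log2 fold change -1.01, SE 0.36, adjusted p = 0.0287, lower in 7 of 9 mice), a call that was lost with the stricter gate (-0.73) and without each of CGF mice 17 and 18 and SPF mice 30 and 32 (-0.99 to -0.78). In PFC the Vip, Lamp5, Pvalb and Sst means were 451, 426, 8.73 and 5.58. Pvalb cells were 49.3-fold below Vip cells in Hip (log2 fold change -5.62, SE 0.27, adjusted p = 1.71e-21) and 50.6-fold below them in PFC, and Vip and Lamp5 cells did not pass the test against each other (log2 0.21 ± 0.16 and 0.04 ± 0.13). Thinned shares of nuclei with Egfr were 28.5% and 33.2% of Vip, 24.0% and 34.2% of Lamp5, and 0.55% and 0.783% of Pvalb nuclei in Hip and PFC, against 0.539% and 0.39% of excitatory nuclei.

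Outside neurons Egfr was highest in astrocytes and fibroblasts. Astrocytes held 415, 328 and 421 in the GF mice, 329, 310.3 and 323 in the SPF mice and 341, 351 and 372 in the CGF mice in Hip. Fibroblasts held 338 ± 87.9 in Hip and 616 ± 449 in PFC, where SPF mouse 30 stood at 1799.9 and the other mice at 337 to 571. OPC had only 11 ± 8.76 in Hip and 18.8 ± 10.3 in PFC and oligodendrocytes 13.2 ± 6.02 and 16.6 ± 12.3, which did not differ beyond their spread. Erbb4 and Egfr were thus both high in Vip and Lamp5 interneurons, while Pvalb cells had much Erbb4 and little Egfr. Sst cells had the lowest Erbb4 of the subtypes, though above excitatory neurons, and little Egfr.

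Erbb3 was an oligodendrocyte gene. Its level in Hip oligodendrocytes was 87.7, 73.0 and 59.8 CPM in the GF mice, 117, 128 and 89.4 in the SPF mice and 105, 66.9 and 91.7 in the CGF mice, and in PFC 80.7, 85.5 and 47.9 in the GF mice, 77.0, 83.0 and 57.4 in the SPF mice and 91.9, 40.3 and 64.9 in the CGF mice. OPC held 20.4 ± 4.74 and 27.3 ± 13.6, which oligodendrocytes exceeded 4.42-fold in Hip (log2 fold change 2.14, SE 0.11, adjusted p = 2.99e-15) and 2.55-fold in PFC (log2 fold change 1.35, SE 0.17, adjusted p = 2.07e-08), in 9 of 9 mice. Newly formed oligodendrocytes had 22.9 and 22.7, and types outside the lineage had means of 4.08 or less. In nuclei of at least 1000 UMIs, thinned to that depth, Erbb3 was seen in 8.75% and 7.29% of oligodendrocytes. The shares were 2.24% and 3.02% of OPC and 0.0691% and 0.059% of excitatory nuclei.

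Erbb2 was close to the limit of detection. Endothelial cells held 13.2 ± 6.37 CPM in Hip on 50 UMIs and 11.7 ± 9.15 in PFC on 23 UMIs, and astrocytes 3.85 ± 0.914 and 8.97 ± 4.50 on 74 and 69 UMIs. Hip OPC showed 0 UMIs of Erbb2 in 7635080, which allows a level of up to 0.393, and Hip Pvalb interneurons 0 in 6448072, which allows 0.465. Hip oligodendrocytes had 7 UMIs and PFC oligodendrocytes 1. These limits cover counting error only.

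When types were put in order of level, 21 steps between neighbours passed a test over the mice. The order came from the means of the same 9 mice, so the pairs and their direction were chosen from the values tested. Other genes were not tested in this way, so the count has no share over all genes beside it. Of 248 neighbouring pairs (8 genes, 16 Hip and 17 PFC types) 21 differed by an exact two-sided sign-flip permutation test over the 9 mice, each with adjusted p = 0.0461 and the same direction in 9 of 9 mice, p = 0.00390625 being the smallest this test can give. They include Erbb4 from Pvalb to Vip and from oligodendrocytes to OPC in Hip, from Lamp5 to oligodendrocytes in both regions and from OPC to Sst interneurons in PFC. Nrg1 fell from mid-layer to corticothalamic neurons, Nrg2 from Lamp5 interneurons to upper-layer neurons in PFC and to OPC in Hip, Nrg3 from CA3 neurons to Sst interneurons, and Erbb3 from oligodendrocytes to the next type in both regions. The other 227 neighbours, among them Erbb4 in Vip and Lamp5 interneurons and Egfr in Vip interneurons and astrocytes of Hip, did not pass. Only pairs with 1 direction in all 9 mice could pass here, so this says little about them, and Erbb4 in PFC Pvalb and Vip interneurons, called by edgeR above, was among them.

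Many genes differ between cell types, and the counts over the 8 genes are to be read against that background. Between interneurons and excitatory neurons 6 of the 7 members tested were called in Hip (4 higher and 2 lower in interneurons) and 4 of 6 in PFC (2 and 2). Over all genes 55.7% were called in Hip (28% higher, 27.7% lower) and 52.7% in PFC (22.6% and 30.1%). Between oligodendrocytes and OPC 5 of 6 were called in each region, 2 higher and 3 lower in oligodendrocytes, against 58% of all genes in Hip (32% higher, 26% lower) and 45.9% in PFC (23.1% and 22.8%). Over the 6 pairs of interneuron subtypes 25 of 36 tests of members were called in Hip (12 higher and 13 lower in the first of the pair) and 24 of 30 in PFC (8 and 16). For all genes the shares were 22.5% in Hip (11.8% higher, 10.6% lower) and 26.9% in PFC (13.7% and 13.2%). Nrg2, the smallest of the calls, was higher in Hip interneurons by log2 0.24 ± 0.05, and in PFC its difference did not pass (0.01 ± 0.04, adjusted p = 0.824). Without the pairing by mouse, interneurons against excitatory neurons had 4 calls in Hip and 3 in PFC. The share of all genes called by that fit is not given.

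The comparison of GF vs. SPF asked how the absence of a gut microbiota went with the transcriptome of each cell type. In Hip every member that passed the test was lower in GF, without correction for gene length. Nrg3 was lower in all 6 major types, Nrg2 in 4, Erbb4 and Erbb3 in 2 each and Nrg1 in 1. Of 36 tests that passed the filter on low counts 15 were called, 0 higher and 15 lower, where 33.4% of all tests over the same types were called (18.6% higher and 14.8% lower in GF). The all-lower pattern did not hold once the dependence of counts on gene length and GC content was taken out of each library. Of the 10 calls then made, Nrg1 was higher in astrocytes (log2 0.76, adjusted p = 0.00837, edgeR) and oligodendrocytes (0.56, adjusted p = 0.0263) and Egfr in astrocytes (0.63, adjusted p = 0.0038), while Nrg3 was lower in 4 types, Erbb3 in 2 and Nrg2 in 1. The share of all tests called after this correction is not given, so the count of 10 has no background. Nrg3, Nrg1, Nrg2, Erbb4 and Egfr were tested in all 6 types, Erbb3 in 3, Nrg4 in 2 and Erbb2 in 1.

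In Hip excitatory neurons Nrg3 was 5458, 5305 and 5433 CPM in the GF mice, 7578, 7469 and 7009 in the SPF mice and 6822, 7005 and 6385 in the CGF mice. The GF mice were all below the other 6, by 1.52-fold against SPF (log2 fold change -0.60, SE 0.07, adjusted p = 0.000144, edgeR quasi-likelihood test). Nrg2 in the same neurons was 133, 131 and 140.1 in the GF mice, 169.7, 198 and 189 in the SPF mice and 169.9, 182 and 212 in the CGF mice, again without overlap between GF and SPF (log2 fold change -0.62, SE 0.09, adjusted p = 0.000376). Erbb3, at a level of 0.283 to 1.21, was lower (log2 -1.55 ± 0.31) on 38 UMIs in GF and 112 in SPF. The summed level of the 10 oligodendrocyte markers in these neurons was 267 to 292 in GF and 315 to 442 in SPF. Of these markers 1 was higher in GF, and the part of oligodendrocyte RNA in the Erbb3 call was not tested. Nrg1 was 628, 814 and 962 in the GF mice against 1645, 984 and 1121 in the SPF mice (log2 fold change -0.80, SE 0.27, adjusted p = 0.0311), a call that was lost without GF mouse 5, GF mouse 6 or SPF mouse 30 (log2 -0.81 to -0.54, adjusted p = 0.122 without the last). Erbb4 was 39.9, 45.4 and 77.5 in the GF mice against 125, 58.2 and 134 in the SPF mice, overlapping groups (log2 fold change -1.12, SE 0.31, adjusted p = 0.0138), and the call was lost without GF mouse 5 (-0.95) or GF mouse 6 (-1.0).

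Nrg3 fell in glia too. In Hip oligodendrocytes it was 504, 537 and 803 in the GF mice, 1538, 953 and 1520.2 in the SPF mice and 1286, 1459 and 1243 in the CGF mice, in astrocytes 309, 816 and 448 in the GF mice against 1251, 1207 and 1667 in the SPF mice, and in microglia 474, 796 and 891 in the GF mice against 1728, 1483 and 1947 in the SPF mice. The groups did not overlap in any of these types, and the log2 fold changes were -1.07 ± 0.19, -1.36 ± 0.25 and -1.26 ± 0.19 (± SE, adjusted p = 0.000884, 0.001 and 6.8e-05). In OPC, the glia with the highest Nrg3 level, the fall was smaller (log2 fold change -0.50, SE 0.11, adjusted p = 0.00366). Thinned to 1000 UMIs, Nrg3 was seen in 16.5% of GF against 64.9% of SPF oligodendrocyte nuclei (27.1% and 90.5% unthinned), 14.8% against 59.0% of astrocytes and 18.5% against 74.7% of microglia, whereas excitatory neurons had 98.1% and 99.4%. Of the 8 excitatory markers in the same glia 2 were higher in GF, the other 6 went with Nrg3 and none was at 0, while their summed level in oligodendrocytes was 1806 in GF, from 1675 to 2059, and 1425 in SPF, from 1196 to 1804. Slc17a7 in oligodendrocytes stood at 62.4% of the excitatory level in GF and 132% in SPF. The part of these transcripts in the Nrg3 values was not tested.

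In Hip interneurons Nrg3 was 4495, 3895 and 4861 in the GF mice against 6003, 6127 and 5611 in the SPF mice and Nrg2 197, 163 and 161 in the GF mice against 243, 229 and 231 in the SPF mice (log2 -0.55 ± 0.13 and -0.57 ± 0.09, both called). With the trend on gene length and GC content removed, Nrg3 was no longer called in interneurons (-0.14, adjusted p = 0.522). Nor was Nrg2 in interneurons (-0.26, adjusted p = 0.14), oligodendrocytes (-0.24, adjusted p = 0.479) or microglia (-0.51, adjusted p = 0.25). Nrg2 was also lower in oligodendrocytes (log2 fold change -0.68, SE 0.23, adjusted p = 0.032) and microglia (log2 fold change -0.98, SE 0.28, adjusted p = 0.0122), the first lost without each of GF mice 5 and 6 and SPF mice 31 and 32 (log2 -0.60 to -0.67) and the second without GF mouse 5 (-0.84). Receptor genes fell in few Hip types. In oligodendrocytes, where Erbb3 is highest, it was 87.7, 73.0 and 59.8 in the GF mice, 117, 128 and 89.4 in the SPF mice and 105, 66.9 and 91.7 in the CGF mice (log2 fold change -0.54, SE 0.19, adjusted p = 0.0476), and the call was lost under DESeq2 (adjusted p = 0.0509), without likely doublets and without each of GF mice 6 and 7 and SPF mice 30 and 31 (log2 -0.53 to -0.41). Erbb4 did not pass in Hip interneurons (log2 fold change -0.42, SE 0.23, adjusted p = 0.174), oligodendrocytes (log2 fold change -0.18, SE 0.13, adjusted p = 0.311) or OPC (log2 fold change -0.33, SE 0.12, adjusted p = 0.0512). In microglia, a type with little Erbb4, it was 46.2, 182 and 36.6 in the GF mice against 344, 228 and 298 in the SPF mice (log2 fold change -1.73, SE 0.41, adjusted p = 0.00365), which was lost under DESeq2 (adjusted p = 0.0987) and with the trend on gene length and GC content removed (-0.90, adjusted p = 0.127). The summed oligodendrocyte markers in these microglia were 469 to 686 in GF and 846 to 1231 in SPF, with 3 of 10 higher in GF. The summed interneuron markers overlapped, 139 to 270 in GF and 156 to 228 in SPF, with 5 of 8 higher in GF. The part of RNA of other types in this Erbb4 was not tested. Egfr in astrocytes was 415, 328 and 421 in the GF mice against 329, 310.3 and 323 in the SPF mice, with overlap and no call (log2 fold change 0.31, SE 0.12, adjusted p = 0.0598).

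In PFC most calls went the other way: 16 of 32 tests were called, 12 higher and 4 lower in GF, where 48.7% of all tests were called (24.6% higher and 24.1% lower). Some values in glia turned lower in GF without likely doublets, as given below. With the trend on gene length and GC content removed 17 tests were called, 13 higher and 4 lower. The share of all tests called after this correction is not given, so these counts have no background. Nrg2, for which no type had been called (median log2 -0.11), was then higher in GF in 3 of 5 types (median 0.57), namely excitatory neurons (0.51), interneurons (0.60) and OPC (0.69), and Nrg1 was lower in excitatory neurons (-0.48), oligodendrocytes (-0.83) and microglia (-0.91), while Nrg1 in OPC (0.076) and Nrg3 in oligodendrocytes (0.26) and microglia (0.13) were no longer called. The mitochondrial share of the libraries was lower in GF than in SPF in PFC and higher in Hip, without overlap, and its part in the calls of either region was not tested. Erbb4 and Nrg3 were each higher in 4 of 6 types. Nrg3 in excitatory neurons was 6424, 7155 and 6568 CPM in the GF mice, 3375, 3778 and 3779 in the SPF mice and 3287, 3689.8 and 2550.0 in the CGF mice, with the 3 GF mice 2.03-fold above SPF (log2 fold change 1.02, SE 0.16, adjusted p = 0.000187). Erbb4 in interneurons was 7474, 7249 and 6643 in the GF mice, 3396, 3509.6 and 3593 in the SPF mice and 3399, 4306 and 3449.5 in the CGF mice, with all GF mice above the other 6 (log2 fold change 1.09, SE 0.15, adjusted p = 2.03e-05).

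In the PFC oligodendrocyte lineage Erbb4 was higher in GF. Oligodendrocytes held 2964, 2625 and 2790.1 in the GF mice, 1396, 937 and 976 in the SPF mice and 1036, 1014 and 1145 in the CGF mice, and OPC 2151, 2130.0 and 1977 in the GF mice, 1185, 909 and 945 in the SPF mice and 874, 1120.4 and 922 in the CGF mice. No GF mouse overlapped any other mouse, and the differences from SPF were 2.57-fold (log2 fold change 1.36, SE 0.16, adjusted p = 6.68e-08) and 2.15-fold (log2 fold change 1.10, SE 0.17, adjusted p = 9.77e-06). Without likely doublets the oligodendrocyte levels were 3218, 2991 and 3073 in GF against 1313, 1034 and 1066 in SPF. Nrg3 was higher in OPC (log2 fold change 0.89, SE 0.17, adjusted p = 0.000193) and interneurons (log2 fold change 0.83, SE 0.17, adjusted p = 0.00095). For Nrg3 in oligodendrocytes, 1301, 1614 and 1541 in the GF mice against 1001, 1083 and 1168 in the SPF mice, the call (log2 fold change 0.46, SE 0.17, adjusted p = 0.0385) was lost without each of GF mice 6 and 7 and SPF mice 30 and 31 (0.39 to 0.46) and turned its direction without likely doublets (338, 448 and 854 against 785, 788 and 855) and with types from clusters.

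The other PFC calls concerned Nrg1, Nrg4, Egfr and Erbb2, and Nrg3 and Erbb4 in microglia and astrocytes. Nrg4 was higher in GF interneurons, 12.3, 15.6 and 10.4 in the GF mice against 7.78, 3.21 and 6.25 in the SPF mice (log2 fold change 1.21, SE 0.32, adjusted p = 0.00562), and in excitatory neurons, where the groups overlapped (log2 fold change 1.01, SE 0.28, adjusted p = 0.00813). Egfr was higher in astrocytes, its main glial type, 424, 402 and 387 in the GF mice, 263, 266 and 312 in the SPF mice and 239.9, 259.9 and 347 in the CGF mice (log2 fold change 0.57, SE 0.15, adjusted p = 0.0031). Erbb2 in excitatory neurons was lower, on 19 UMIs in GF and 36 in SPF (log2 fold change -2.16, SE 0.43, adjusted p = 0.000897). Nrg1 was lower in microglia (338, 256 and 398 in the GF mice against 1220.2, 641 and 642 in the SPF mice, log2 fold change -1.40, SE 0.21, adjusted p = 1.04e-05), a call that was lost with types from clusters (log2 -0.23, adjusted p = 0.546). Neuronal markers moved in the same microglia, and not in 1 direction. As a share of the excitatory level Nrg1 was at 12.8% in GF and 28.7% in SPF and Nrg3 at 10.4% and 26.0%, while Arpp21 was at 11.3% and 28.5%, Camk2a at 16.5% and 28.0%, and Slc17a7 at 108% and 69.2%. Of the 8 excitatory markers 4 were higher in GF, and their summed level was 2258 to 2607 in GF and 1642 to 2367 in SPF. The summed level of the 8 interneuron markers was 180 to 226 in GF and 55.7 to 130 in SPF, with 7 of 8 higher in GF. The part of neuronal RNA in these calls was not tested. Nrg1 was higher in OPC (log2 fold change 0.55, SE 0.20, adjusted p = 0.036) and lower in oligodendrocytes with overlap (log2 fold change -0.46, SE 0.17, adjusted p = 0.0322), and Nrg3 was lower in microglia (log2 fold change -0.53, SE 0.18, adjusted p = 0.0239), and types from clusters turned the last (log2 0.79). The 3 calls were lost without each of 4 mice: GF mouse 7 and SPF mice 30, 31 and 32 for OPC (0.36 to 0.59), GF mice 5 and 6 and SPF mice 31 and 32 for oligodendrocytes (-0.44 to -0.31), and GF mice 5 and 7 and SPF mice 31 and 32 for microglia (-0.53 to -0.33). In astrocytes the higher Erbb4 (458, 98.8 and 353 in the GF mice against 166, 126 and 228 in the SPF mice, log2 fold change 0.83, SE 0.32, adjusted p = 0.0351) turned into a lower one without likely doublets (60.9, 70.8 and 77.0 against 121, 113 and 159, log2 -0.89, adjusted p = 0.00038), and was lost without each of GF mice 5 and 7 and SPF mice 30 and 31 (0.44 to 0.78). The summed level of the 8 interneuron markers in these astrocytes was 139 in GF, from 121 to 160.0, and 68.7 in SPF, from 63.8 to 71.7, with 7 of 8 genes higher in GF and none at 0. Without likely doublets Nrg3 in astrocytes was 199, 266 and 283 in the GF mice against 535, 656 and 717 in the SPF mice. In microglia it was then 275, 535 and 447 against 671, 956 and 907. Erbb4 in microglia had means of 197 in GF and 191 in SPF with all nuclei. Without likely doublets it was 62.2, 61.4 and 82.1 in the GF mice against 236, 121 and 259 in the SPF mice.

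**Figure D4:**
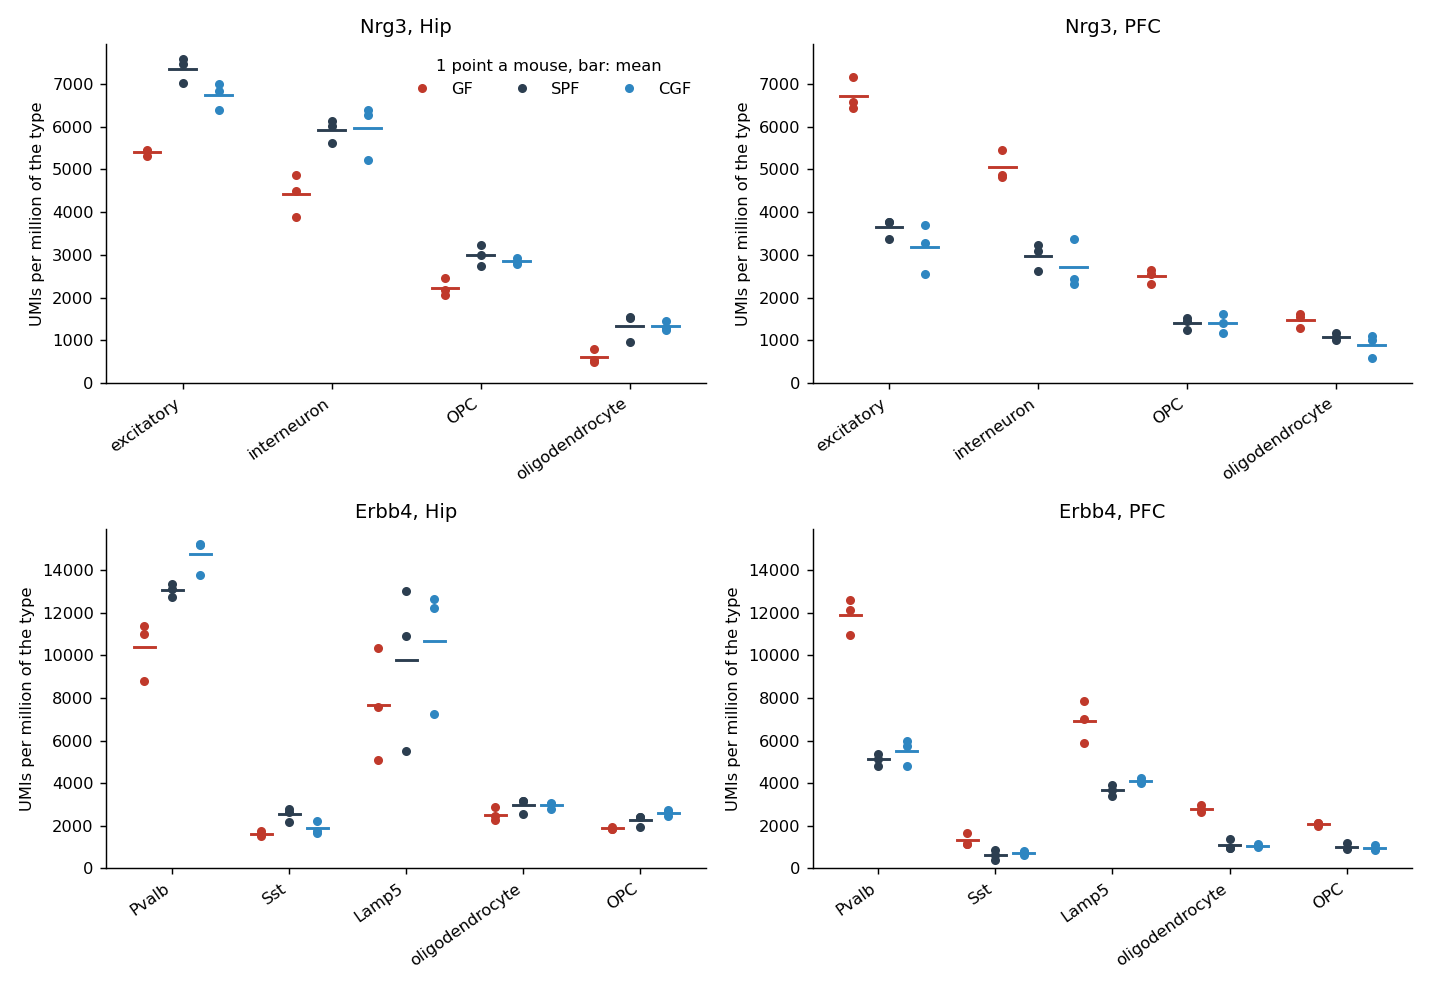
Levels of Nrg3 and Erbb4 (CPM of the type, linear axis) in Hip and PFC, Nrg3 in neurons and the oligodendrocyte lineage and Erbb4 in 3 interneuron subtypes and that lineage, with 1 point per mouse and a bar at the mean of GF, SPF and CGF. GF mice lie below SPF and CGF mice for Nrg3 in Hip and above them for Nrg3 and Erbb4 in all types shown of PFC.

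In interneuron subtypes the calls were lower in GF in Hip and, with 1 exception, higher in GF in PFC. In Hip 9 of 21 tests were called, all lower in GF, against 18.2% of all tests (10.7% higher, 7.55% lower). Nrg3 was lower in Pvalb, Sst and Vip cells, Nrg2 in Pvalb and Sst cells, Erbb4 in Pvalb (log2 fold change -0.40, SE 0.11, adjusted p = 0.0122) and Sst cells (log2 fold change -0.76, SE 0.12, adjusted p = 0.000242), and Nrg1 in Vip and Lamp5 cells. The Vip call of Nrg1 rested on few nuclei, 165, 228 and 235 in the GF mice against 1692, 262 and 614 in the SPF mice, and was lost without SPF mouse 30 (log2 -1.03, adjusted p = 0.206) and without each GF mouse. The Lamp5 call of Nrg1 was lost without each GF mouse and SPF mice 30 and 31 (-0.95 to -0.73), and the Vip call of Nrg3 without any 1 of the 6 mice (-0.70 to -0.62). In PFC 7 of 18 were called, 6 higher and 1 lower in GF, against 39.7% (19.6% higher, 20.1% lower). Erbb4 was higher in Pvalb cells by 2.52-fold (log2 fold change 1.33, SE 0.14, adjusted p = 2.83e-08), in Sst cells by 2.28-fold and in Lamp5 cells by 2.00-fold, and Nrg3 in the same subtypes by 2.05-fold, 1.96-fold and 1.80-fold. Nrg1 was lower in PFC Sst cells, 246, 227 and 370.3 in the GF mice, 463, 448 and 529.9 in the SPF mice and 258, 306 and 262 in the CGF mice (log2 fold change -0.65, SE 0.15, adjusted p = 0.000708). With the trend on gene length and GC content removed none of the 9 Hip calls was left, and 1 other, Nrg1 in Sst cells, was called higher in GF (log2 0.77, adjusted p = 0.0122). In PFC 10 were then called: Nrg2 and Nrg3 were higher in Pvalb, Sst and Lamp5 cells and Erbb4 in Pvalb and Sst cells, Nrg1 was lower in Pvalb (-0.97) and Sst cells (-1.09), and Erbb4 in Lamp5 cells was no longer called (0.34). For neither region is the share of all tests called after the correction given.

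Long genes went lower in GF in Hip, and in PFC higher in neurons and the oligodendrocyte lineage and lower in astrocytes and microglia. In Hip excitatory neurons 169 of 232 genes over 500 kb were lower in GF (72.8%, median log2 -0.49), with 141 of 230 in interneurons and 124 of 221 in oligodendrocytes. In PFC 101 were higher and 27 lower in excitatory neurons (median 0.27), 81 and 25 in interneurons, and 58 and 20 of 212 in oligodendrocytes. PFC astrocytes had 49 higher and 89 lower of 221 (median -0.23) and PFC microglia 11 and 108 of 190 (median -0.71). After correction of every library for a dependence of counts on gene length and GC content, Nrg3 in Hip excitatory neurons was at log2 -0.18 (adjusted p = 0.032), Nrg3 in PFC excitatory neurons at 0.68 and Erbb4 in PFC oligodendrocytes, OPC and Pvalb interneurons at 0.95, 0.57 and 0.79, all called. Nrg3 in Hip interneurons (-0.14) and OPC (-0.18), Nrg1 in Hip excitatory neurons (-0.36), Erbb4 in Hip excitatory neurons (-0.68), Hip microglia (-0.90) and Hip Pvalb interneurons (0.0051) were then not called. Depth per nucleus moved with the groups as well, lower in GF than in SPF in Hip and higher in PFC. The summed UMIs of each library and type were also thinned to the lowest mean UMIs per nucleus of the region (5510.0 in Hip and 2895 in PFC). Of 75 calls over the 3 group comparisons 69 then kept direction and threshold and 6 lost the threshold. Such thinning leaves expected levels as they were, and the types were set at full depth. It therefore shows only what fewer counts do to the calls, and the part of depth in them was not tested.

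**Figure D5:**
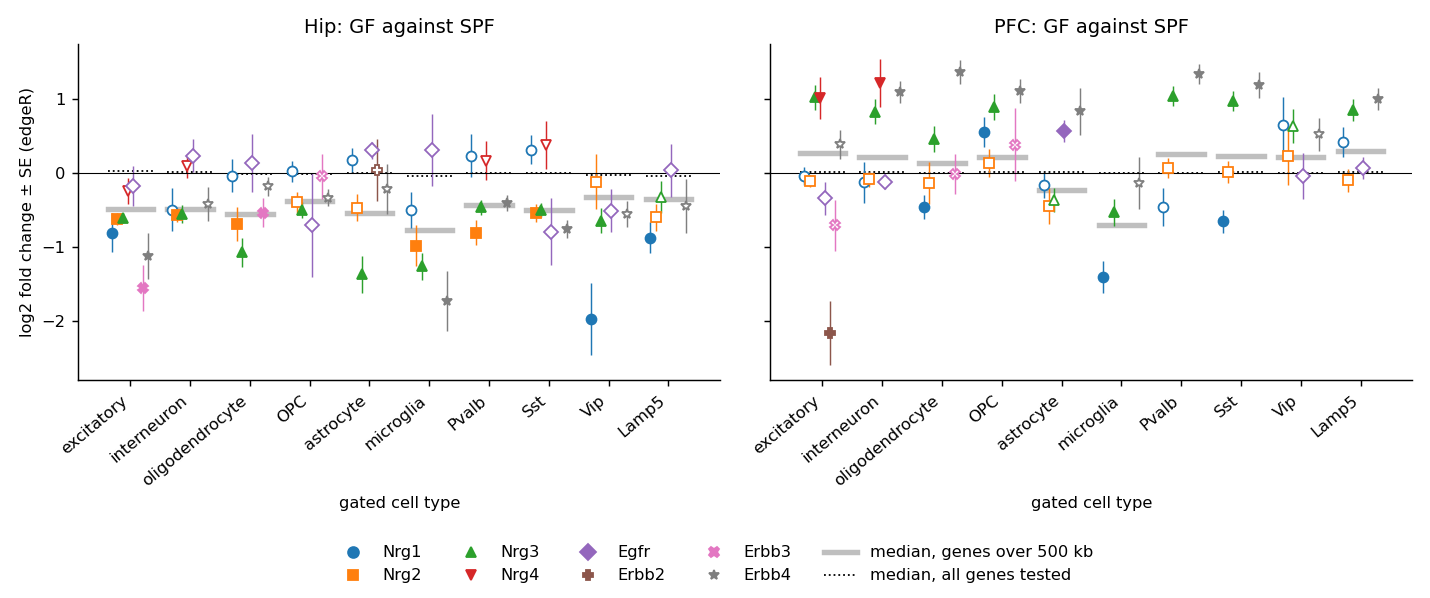
Log2 fold change of GF against SPF (± SE) for the 8 genes in the 6 major types and 4 interneuron subtypes of Hip and PFC, filled where the adjusted p was under 0.05. The grey bar is the median of genes over 500 kb in that type and the dotted line the median of all genes tested. Called points lie below 0 in Hip and mostly above 0 in PFC.

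GF vs. CGF, which shares the GF mice with GF vs. SPF, gave 15 calls of 36 in Hip, all lower in GF, against 35.1% of all tests (19.2% higher, 16% lower), and 14 of 32 in PFC, 12 higher and 2 lower, against 48.5% (24.7% and 23.8%). With the dependence on gene length and GC content taken out, the balance in Hip was another: of 10 calls Nrg1 was higher in 3 types, Egfr in 2 and Erbb4 in 1, and Nrg2, Nrg3, Erbb3 and Erbb4 were lower in 1 each. In PFC 15 were called, 14 higher and 1 lower, and Nrg2 went from 1 lower call (median log2 -0.16) to 3 higher ones (median 0.42). These counts, too, have no share of all tests after the correction beside them. Nrg3 in Hip excitatory neurons differed by log2 -0.52 ± 0.07 from CGF, a difference that was gone after this correction (0.000475), and Erbb4 in PFC oligodendrocytes by 1.39 ± 0.16. Erbb4 in Hip OPC was lower than in CGF (log2 fold change -0.58, SE 0.12, adjusted p = 0.00137), and this was lost with the same correction (-0.05). Nrg1 in PFC excitatory neurons was 2519, 2513 and 2672 in the GF mice, 2887, 2928 and 2906 in the SPF mice and 1998, 1999.7 and 1661 in the CGF mice, higher in GF than in CGF (log2 fold change 0.60, SE 0.12, adjusted p = 0.000941), whereas against SPF it was -0.04 ± 0.12 and not called.

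Between CGF and SPF no member was called in the 6 major types of either region by edgeR, 0 of 36 in Hip and 0 of 32 in PFC, where 0.241% and 0.156% of all tests were called. At an unadjusted p under 0.05 there were 4 in each region, and DESeq2 called 0 and 1. Of all genes, 2857 of 18721 in Hip excitatory neurons and 1204 of 13987 in Hip interneurons had such an unadjusted p (edgeR). The share of all tests over the 6 types is not given for the unadjusted or the DESeq2 counts, so these counts are not read as a result about the members. The largest in excitatory neurons of PFC was Nrg1, lower in CGF without overlap (log2 fold change -0.64, SE 0.12, adjusted p = 0.0552). Among interneuron subtypes there were 0 calls of 21 in Hip and 1 of 18 in PFC, where 0.0547% and 0.156% of all tests were called, with 3 in each region at an unadjusted p under 0.05 and 0 and 1 by DESeq2. The 1 call was Nrg1 in PFC Sst cells (log2 fold change -0.78, SE 0.17, adjusted p = 0.0368), 258, 306 and 262 in CGF against 463, 448 and 529.9 in SPF without overlap, and it was lost without each of CGF mice 17 and 19 and SPF mice 30, 31 and 32 (-0.84 to -0.67), without likely doublets, with the stricter gate and with types from clusters. Without likely doublets another call took its place, so that the count stayed at 1.

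The difference in GF vs. SPF between the regions was tested itself, in 1 fit of all 18 libraries that did not pair the 2 libraries of a mouse. Of 37 tests 15 were called, 14 with a lower value in Hip and 1 with a higher one, against 30% of all tests (13.9% higher, 16.1% lower). Nrg3 differed in 5 types, with log2 differences of -1.68 ± 0.18 in excitatory neurons, -1.38 ± 0.22 in interneurons, -1.54 ± 0.28 in oligodendrocytes, -1.39 ± 0.20 in OPC and -0.93 ± 0.32 in astrocytes. Erbb4 differed in 4, with -1.56 ± 0.39, -1.51 ± 0.28, -1.56 ± 0.20 and -1.44 ± 0.20 in the first 4 of these types. With the mouse as a block the 1 higher call, Erbb2 in astrocytes, was lost (1.80, adjusted p = 0.0654, edgeR). That fit also called Erbb4 (-1.69, adjusted p = 0.000164), Nrg3 (-0.72, adjusted p = 0.0284) and Nrg1 (0.94, adjusted p = 0.00581) in microglia. The astrocyte difference of Nrg3 was lost without each of GF mice 5 and 7 and SPF mice 30 and 32 (-0.95 to -0.69) and the oligodendrocyte difference of Nrg3 with types from clusters (-0.47). With the trend on length and GC content removed 8 of the 15 calls were kept. Erbb4 was then no longer called in excitatory neurons (-0.61), interneurons (-0.69) and oligodendrocytes (-0.63), Nrg4 in excitatory neurons (-0.84) and interneurons (-0.71) or Erbb2 in astrocytes (1.34), and Nrg1 in excitatory neurons turned (0.12). With the summed UMIs thinned to the lowest mean UMIs within each region, 14 of the 15 calls were kept. This leaves a difference in depth between the regions and keeps expected levels as they were, so the part of depth was not tested.

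The same genes differed between Hip and PFC with the 3 groups weighted equally. Of 37 tests 23 were called, 15 higher and 8 lower in Hip, against 54.8% of all tests (28.8% higher, 26% lower). Erbb4 was higher in Hip interneurons (log2 0.88 ± 0.11), oligodendrocytes (0.95 ± 0.08) and OPC (0.87 ± 0.08), and Nrg3 in excitatory neurons (0.71 ± 0.07), interneurons (0.81 ± 0.09) and OPC (0.71 ± 0.08). The groups differed in this: Erbb4 in oligodendrocytes differed by 1.44 ± 0.15 in SPF and 1.51 ± 0.15 in CGF but by -0.11 ± 0.14 in GF, which was not called, and Nrg3 in excitatory neurons by 1.23 ± 0.13 and 1.35 ± 0.13 but -0.44 ± 0.12. Nrg1 was lower in Hip excitatory neurons in each group, with log2 fold changes of -1.81 ± 0.22 in GF, -0.99 ± 0.22 in SPF and -0.87 ± 0.22 in CGF. Nrg4 was higher in Hip interneurons (0.98 ± 0.15) and excitatory neurons (0.53 ± 0.15).

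The other genes of the route were 56 genes in 4 lists: other ErbB ligands, proteases that shed or cut ligands and receptors, adaptors and kinases after the receptor, and scaffolds with feedback regulators. Over the 6 types GF vs. SPF gave 25 higher and 55 lower of 292 tests in Hip and 48 higher and 57 lower of 261 in PFC. In Hip the higher calls were 8.56% of the tests and the lower ones 18.8%, against 18.6% and 14.8% of all tests over the same types, and in PFC 18.4% and 21.8%, against 24.6% and 24.1%. The counts of the single lists are to be read against the same shares of all tests. In Hip the adaptors and kinases had 11 higher and 29 lower of 159, the scaffolds and feedback genes 6 and 11 of 58, the proteases 8 and 7 of 59 and the other ligands 0 and 8 of 16. In PFC the counts were 31 and 33 of 150, 6 and 19 of 53, 11 and 5 of 46 and 0 and 0 of 12. CGF vs. SPF gave 0 calls in both regions by edgeR, with 24 at an unadjusted p under 0.05 in each region, and DESeq2 called 2 in Hip and 1 in PFC. The unadjusted and DESeq2 counts have no share of all tests beside them.

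Genes shorter than 20 kb were shifted as a class, too. In Hip their GF vs. SPF median (log2) ran from 0.39 in excitatory neurons to 0.46 in interneurons over the 6 major types. In PFC it was 0.26 in microglia, 0.16 in astrocytes and -0.07 to 0.03 in the other major types. The pathway values below are without correction for gene length and GC content. The part of gene length in them was not tested. Among the largest changes of the pathway genes, all called and without overlap of GF and SPF, were those that follow. In Hip, Psenen, a subunit of gamma-secretase, was higher in GF excitatory neurons (26.6 to 29.9 CPM against 7.78 to 12.2, log2 1.45), as was Hras, a small GTPase of the MAP kinase route (log2 1.30), and Errfi1, a feedback inhibitor of EGF receptors, was higher in OPC (log2 1.21). Egf, the founding ligand of Egfr, was lower in GF astrocytes, where Egfr is high (2.27 to 3.71 against 8.46 to 13.4, log2 -1.83). Lrig3 in excitatory neurons (-1.38) and Aph1b in oligodendrocytes (-1.13) were lower too. The Lrig3 level was very low there, 0.479 to 0.849 CPM in GF and 1.38 to 1.64 in SPF. Its highest Hip type was the oligodendrocyte, with a mean of 44.4. The summed oligodendrocyte markers in these neurons were 267 to 292 in GF and 315 to 442 in SPF, with 1 of 10 higher in GF. The part of oligodendrocyte RNA in this Lrig3 call was not tested. In PFC, Hras was higher in microglia (log2 2.00) and Errfi1 in oligodendrocytes (85.8 to 124 against 20.8 to 43.3, log2 1.65). Lower in GF were Akt2 in OPC (-1.84), Mapk3, which encodes ERK1, in excitatory neurons (8.30 to 10.4 against 25.1 to 34.2, log2 -1.52) and Adam19, a protease that can shed neuregulins, in astrocytes (-1.42). By level Tgfa, another Egfr ligand, was highest in OPC of both regions (155 and 125 CPM), Adam10 in endothelial cells and Adam17 in microglia.

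Across the 37 gated types and classes of both regions the genes whose levels were most like those of a member were named by Pearson's r of log2(level + 1) over 14990 genes, a description over types that share libraries. Nrg3 was most like Stxbp5l (0.99), Fam155a (0.97) and its antisense gene Nrg3os (0.97). Erbb4 was most like Scgb2b2 (0.89), the interneuron marker Gad1 (0.88) and Dlx6os1 (0.88). Erbb3 was most like Ninj2, 1700047M11Rik and the oligodendrocyte connexin gene Gjc3 (all 0.95). Egfr was most like its antisense gene Egfros (0.94), Nrg2 like Adam22 (0.86), Nrg4 like Bbs5 (0.86), Erbb2 like Six5 (0.90), and Nrg1 like Zmiz1os1 (0.82) and Arpp21 (0.81). Between members the highest values were 0.71 for Nrg2 with Nrg3 and 0.68 for Nrg3 with Nrg4, while Nrg1 and Erbb4 were at -0.40.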

How the data were processed

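The authors isolated nuclei from frozen tissue and deposited, per library, 10x Genomics matrices of raw UMI counts per gene and barcode (software 3.1.0 in the file headers, Cell Ranger and CASAVA 1.8 in the submitters' processing notes, build mm10). Whether reads on introns were counted is not given in the sources used here. Nuclei with at least 200 genes and at most 10% mitochondrial UMIs were kept (138000). A nucleus was gated to the type whose markers made its counts likeliest, by a likelihood ratio of at least 20 and with at least 2 markers of the type present. The gate and Leiden clusters (leidenalg 0.10.2) named 92.5% to 99.1% of the nuclei of a major type alike. Likely doublets were scored, at 0.8% per 1000 nuclei, and left out only as an alternative (6.21% of nuclei). Types with at least 5 nuclei in every library were used.

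UMIs were summed per mouse and type and tested with edgeR 4.0.16 (R 4.3.3) by quasi-likelihood with TMM scaling and filterByExpr, adjusted by Benjamini-Hochberg over all genes of a test, threshold 0.05. Group comparisons used the 9 mice of a region, region comparisons all 18 libraries without a block, and type comparisons had the mouse as a block. The 3 mice of a group are separate animals. Both regions of a mouse carry its number in the labels, and the deviations of a mouse's 2 libraries from their group means correlated at 0.207 to 0.449 over 13026 genes in all 9 mice, all over 0.1, so the numbers pair the samples. The study lists the nuclei of GF mice 6 and 7 the other way round in both regions, so these 2 names may be exchanged, which leaves the pairing and all group values as they are. Alternatives were DESeq2 1.42.0, no filter, a stricter gate (ratio 10000), types from clusters, likely doublets left out, summed UMIs of a library and type thinned to the lowest mean UMIs per nucleus of the region, a trend on gene length and GC content removed, the 2 groups alone, each mouse left out and the other blocking. Tested on simulated data for GF against SPF, edgeR found 86.5% of 200 changed genes among 13987 in Hip interneurons and 77.5% among 7083 in PFC oligodendrocytes. These pool 97% of 4-fold and 76% of 2-fold changes in the first and 94% and 61% in the second. The simulation gave every gene the same spread between mice and changed few genes, whereas 36.7% were called in the real Hip interneurons. The shares found therefore need not hold for these data. For the difference between regions in oligodendrocytes it found 64% of 4-fold and 20% of 2-fold changes among 12029 genes.

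Named were all 8 members, in each region the pathway genes that were called without overlap of GF and SPF and had the 3 highest and the 3 lowest log2 fold changes, and for each member the 3 genes most alike over types. One pathway gene that this rule names is not reported here. The members and lists were chosen with earlier results of these data known. A median over all genes tested moved by over 0.1 (log2) in the difference between regions in excitatory neurons (-0.13) and in Vip pairs (0.11 to 0.14).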

Additional observations from a re-analysis of the deposited data

Results flagged for a closer look

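The difference between Hip and PFC in the GF against SPF contrast, fitted as (GF minus SPF in Hip) minus (GF minus SPF in PFC) on the log2 scale with edgeR and adjusted over all genes of a type, passed the threshold for 15 pairs of a member and a type. In excitatory neurons it was -1.68 ± 0.18 (SE) for Nrg3 (adjusted p = 5.18e-07), -1.56 ± 0.39 for Erbb4 (adjusted p = 0.00279), -1.30 ± 0.36 for Nrg4 (adjusted p = 0.00545), -0.82 ± 0.30 for Nrg1 (adjusted p = 0.0311) and -0.57 ± 0.12 for Nrg2 (adjusted p = 0.000605). In interneurons it was -1.51 ± 0.28 for Erbb4 (adjusted p = 0.000291), -1.38 ± 0.22 for Nrg3 (adjusted p = 7.75e-05), -1.12 ± 0.35 for Nrg4 (adjusted p = 0.0158) and -0.48 ± 0.13 for Nrg2 (adjusted p = 0.00746). In the oligodendrocyte lineage the difference was -1.56 ± 0.20 for Erbb4 (adjusted p = 2.81e-06) and -1.54 ± 0.28 for Nrg3 (adjusted p = 0.000201) in oligodendrocytes, and -1.44 ± 0.20 for Erbb4 (adjusted p = 5.9e-06) and -1.39 ± 0.20 for Nrg3 (adjusted p = 1.01e-05) in OPC. In astrocytes it was -0.93 ± 0.32 for Nrg3 (adjusted p = 0.0333) and 1.79 ± 0.62 for Erbb2 (adjusted p = 0.0351), the only positive value among the 15 and the only one whose call was lost with the mouse as a block (1.80, adjusted p = 0.0654). With that block Erbb4 (-1.69), Nrg3 (-0.72) and Nrg1 (0.94) in microglia, which are not among the 15, were called. The calls of 4 pairs were lost when 1 mouse, with both of its libraries, was left out: Nrg1 in excitatory neurons without GF mouse 5, GF mouse 6 or SPF mouse 30 (-0.83 to -0.52), Nrg4 in interneurons without GF mouse 6 or SPF mouse 31 (-0.94 to -0.82), Nrg3 in astrocytes without GF mouse 5, GF mouse 7, SPF mouse 30 or SPF mouse 32 (-0.95 to -0.69), and Erbb2 in astrocytes without CGF mouse 19, GF mouse 6, GF mouse 7 or any 1 of the 3 SPF mice (1.28 to 1.85). The median UMIs per nucleus also ran in opposite order in the regions, with GF below SPF in Hip and above SPF in PFC, and the mitochondrial share of UMIs ran the reverse way, whose part in these values was not tested. With the summed UMIs thinned to the lowest mean depth within each region, though not across regions, 14 of the 15 calls were kept. Such thinning leaves expected levels as they were. With the trend on gene length and GC content removed 8 of the 15 were kept, 6 lost the threshold (Erbb4 in excitatory neurons, interneurons and oligodendrocytes, Nrg4 in excitatory neurons and interneurons, and Erbb2 in astrocytes) and 1 turned its direction (Nrg1 in excitatory neurons).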

How the results depend on the processing

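When single mice were omitted, the pairs of a member and a major type called in GF against SPF numbered 11 to 17 in Hip (15 with all mice) and 12 to 18 in PFC (16), and in GF against CGF 13 to 16 in Hip and 12 to 16 in PFC. CGF against SPF gave 0 in Hip throughout and 0 to 1 in PFC. The GF against SPF subtype counts ran from 6 to 9 (Hip) and from 7 to 8 (PFC), those of CGF against SPF 0 to 1 and 0 to 2, the difference between regions 13 to 15, Hip against PFC 20 to 25, interneurons against excitatory neurons 6 in Hip and 4 to 5 in PFC, oligodendrocytes against OPC 5 in Hip and 4 to 5 in PFC, and the subtype pairs 23 to 26 and 22 to 25. CGF against SPF rose from 0 to 1 in Hip with no filter or without likely doublets, and in PFC to 1 with DESeq2, without likely doublets, with the stricter gate, with the trend on length and GC content removed and without CGF mouse 18, and to 3 with no filter. For GF against SPF the Hip subtype count dropped from 9 to 1 with the trend removed (none of the 9, and Nrg1 in Sst cells instead), and the PFC one rose from 7 to 11 with no filter. For CGF against SPF the Hip subtype count rose from 0 to 2 with no filter and to 1 without CGF mouse 17, and the PFC one changed from 1 to 2 with no filter, with the 2 groups alone and without GF mouse 7, and to 0 with types from clusters, with the stricter gate and without each of CGF mice 17 and 19 and SPF mice 30, 31 and 32.

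Of 77 group calls, DESeq2 kept 65, types from clusters 64, doublets left out 68, no filter 73, the 2 groups alone 77 and the trend 43. Thinning and the stricter gate kept 69 and 66 of 75, and with each mouse left out 618 of 693 calls were kept. Directions turned for GF against SPF in PFC for Nrg3 in oligodendrocytes (-0.22 with clusters, -0.54 without doublets), Erbb4 in astrocytes (-0.89 without doublets) and Nrg3 in microglia (0.79 with clusters, 0.13 with the trend removed). With the trend removed they also turned for Nrg3 in Hip excitatory neurons (0.000475) and Nrg1 in Hip OPC (0.10) in GF against CGF, for Erbb4 in Hip Pvalb interneurons (0.0051) in GF against SPF and for the difference between regions of Nrg1 in excitatory neurons (0.12). For Hip against PFC in oligodendrocytes they turned with clusters for Erbb3 (-0.11), Nrg1 (0.068) and Nrg2 (0.90), and for Nrg2 with the trend removed (0.072). The cause was not tested.

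With the mouse as a replicate block, the difference between regions had 17 calls and Hip against PFC 24, and the 1 call lost was Erbb2 in astrocytes (1.80, adjusted p = 0.0654). The difference between regions gained Erbb4, Nrg3 and Nrg1 in microglia. Without the block, interneurons against excitatory neurons had 4 and 3 calls in Hip and PFC, oligodendrocytes against OPC 4 and 3, and the subtype pairs 18 and 16. Groups within a region share no mouse number, so their comparisons have no paired fit. DESeq2 size factors moved the median over all genes for the difference between regions in excitatory neurons from -0.13 to -0.087. Depth limits what can be said of Erbb2, of Erbb3 outside the oligodendrocyte lineage and of Nrg4, each of which had 0 UMIs in at least 1 type.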
